A study of Mus musculus with 4 samples.

Results

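The strial potassium secretion machinery is described here by 7 genes, Kcne1, Kcnq1, Slc12a2, Bsnd, Kcnj10, Kcnj13 and Esrrb, which were taken by name from the 37239 gene identifiers measured in mouse cochleae. All 7 were present and all 7 passed the filter on low values, with 14721 genes tested in all. Whole cochleae were dissected at postnatal day 8 from mice homozygous for the cello allele of Ikzf2 and from their wild-type littermates, with 2 RNA-seq libraries for Ikzf2cello/cello and 2 for Ikzf2+/+. Ikzf2 encodes helios, a zinc finger transcription factor of outer hair cells, and cello is a mutant allele that every cell of the homozygous animals carries, so that the stria vascularis was mutant as well as the hair cells. The libraries are labelled biological duplicates, and the number of animals behind each is not stated, so p-values measure only the spread among these 4 libraries. The question put to these libraries is how cochlear transcripts differ with a mutant helios, and for these genes whether the potassium pathway of the stria differs.

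The stria vascularis is the epithelium in the lateral wall of the cochlea that secretes potassium into endolymph and sustains the endocochlear potential on which hair cell transduction runs. Its marginal cells take potassium up from the intrastrial space through the sodium-potassium pump and the cotransporter NKCC1, and release it into endolymph through a channel built from KCNQ1 and KCNE1. The chloride that enters with it is recycled across the basolateral membrane, which depends on barttin. Intermediate cells, which are melanocyte-like, supply potassium to the intrastrial space through the inward rectifier KCNJ10, and ESRRB is a nuclear receptor of marginal cells that is needed for their development in mice. Human mutations in KCNQ1, KCNE1, BSND, KCNJ10 and ESRRB are each known causes of hearing loss.

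The marginal cell genes Kcne1, Kcnq1, Bsnd, Slc12a2 and Esrrb were each lower in both cello libraries than in both wild-type libraries, whereas the groups overlapped for the inward rectifier genes Kcnj10 and Kcnj13. The mean levels of Kcne1, Kcnq1, Bsnd and Esrrb were 22.9% to 25.4% lower in cello, that of Slc12a2 was 9.98% lower, and those of Kcnj10 and Kcnj13 were 7.22% and 3.27% lower. Of all 14721 genes tested, 28.7% were lower in both cello libraries than in both wild-type libraries and 16.9% were higher in both. All 7 had a log2 fold change below 0, as did 56.6% of the genes tested. By limma, 0 of the 7 passed an adjusted p of 0.05, as did 0% of all genes tested, in either direction. At an unadjusted p below 0.05, limma counted 6.47% of the genes tested as lower in cello and 4.42% as higher, and Kcne1, Kcnq1, Bsnd and Esrrb were among the lower ones. In edgeR 4.42% were lower and 5.52% higher at an unadjusted p below 0.05, and the lower ones held Kcne1, Kcnq1 and Esrrb. In whole tissue, fewer cells of a type and less RNA per cell cannot be told apart.

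**Figure D1:**
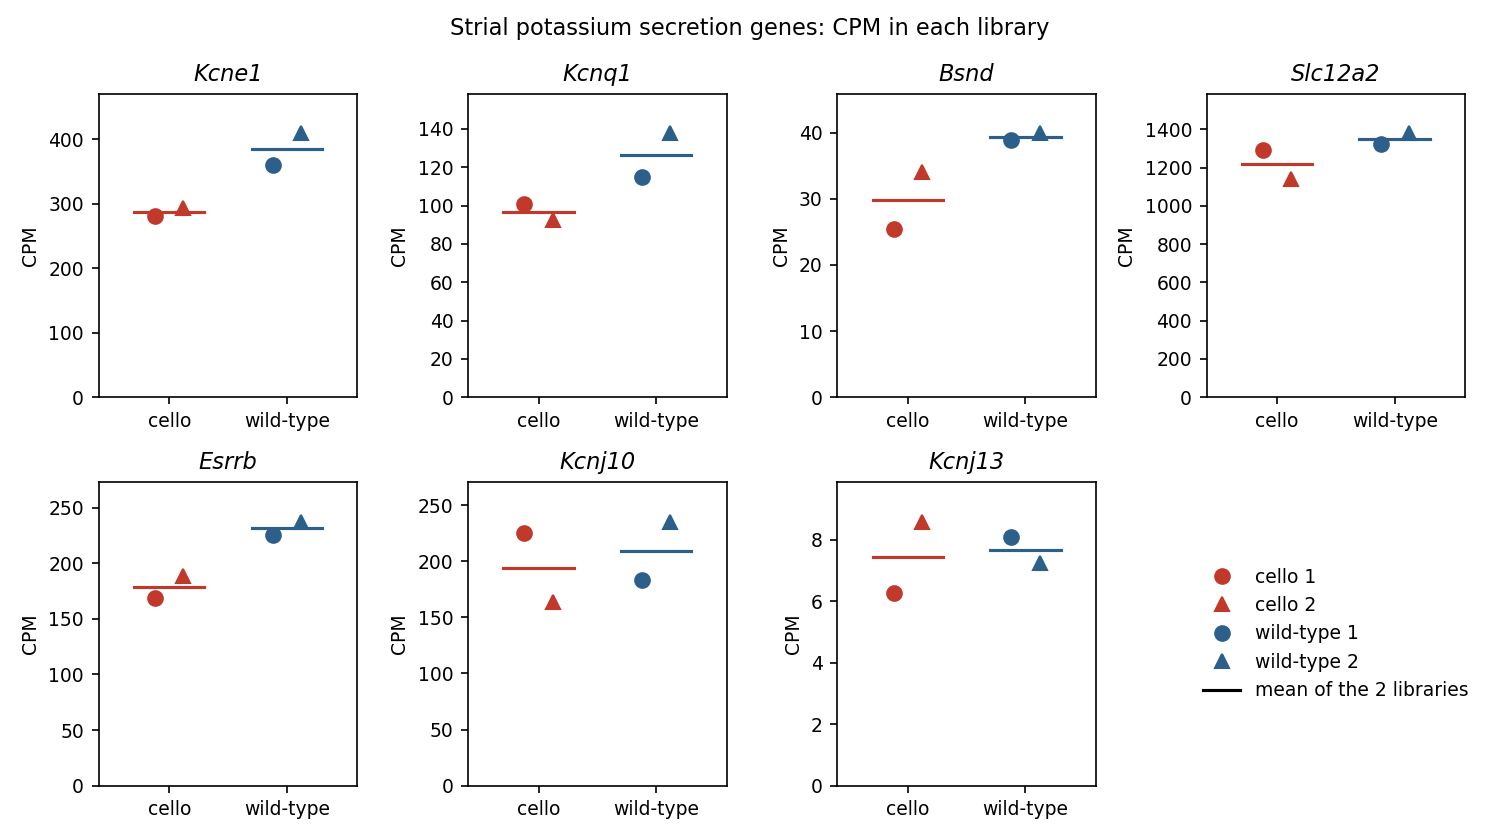
CPM (counts scaled to sequencing depth) of the 7 genes in each library, cello on the left and wild-type on the right of each panel; circles and triangles are replicates 1 and 2 and the bar is the mean of 2 libraries. The groups stand apart for Kcne1, Kcnq1, Bsnd, Slc12a2 and Esrrb, and overlap for Kcnj10 and Kcnj13.

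The values are CPM, counts scaled by the authors to all counted alignments of a library, and they resolve into whole reads. Ikzf2 itself stood at 17.7 and 16.9 CPM in cello and at 22.9 and 18.5 CPM in wild-type, which does not check the labels, since a mutant allele can be transcribed. Of the marginal, intermediate and basal cell markers only Tyrp1 stayed under the filter. The cello libraries held 42450937 and 47463910 counted alignments and the wild-type libraries 49719984 and 42152616, and 70.0% to 72.8% of them lay in annotated genes. The 7 genes together held 0.210% and 0.192% of the alignments in cello and 0.226% and 0.245% in wild-type. The make-up of the libraries also differed within genotypes. The summed CPM of 8 bone markers was 3190.3 and 1189.6 in cello against 1526.9 and 1686.8 in wild-type, and that of 8 Schwann cell markers was 3806.8 and 4650.4 in cello against 986 and 2552.1 in wild-type. Cello replicate 1, with the most bone RNA, and wild-type replicate 1, with the least Schwann cell RNA, therefore stood apart from the other library of their genotype.

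The potassium exit channel of marginal cells is described first. Kcne1 encodes the small accessory subunit that slows the opening of the channel and raises its current. Kcne1 (ENSMUSG00000039639, protein coding, chromosome 16, 92345982 to 92359468 on the minus strand of GRCm38) stood at 281 and 293 CPM in cello and at 361 and 409.6 CPM in wild-type, values that rest on 11917 and 13930 reads in cello and on 17927 and 17266 reads in wild-type. The lower wild-type library lay 0.30 above the higher cello library on the log2(CPM + 0.5) scale, more than the gap of 0.06 between the cello libraries or of 0.18 between the wild-type libraries. The log2 fold change, cello minus wild-type, was -0.42 (SE 0.10, 95% interval -0.68 to -0.16), and limma gave an adjusted p of 0.419 over all genes. DESeq2, run on the recovered reads, gave an adjusted p of 0.038 for Kcne1, which was the only member past 0.05 in that test, and edgeR gave 0.452. DESeq2 placed 0.589% of the genes it adjusted below 0.05 with lower values in cello and 0.847% with higher ones.

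Kcnq1 encodes the pore-forming subunit, which also carries a repolarizing current of the heart. Kcnq1 (ENSMUSG00000009545, protein coding, on the plus strand of chromosome 7 from 143106362 to 143427042) stood at 101 and 92.3 CPM in cello and at 115 and 138 CPM in wild-type. A gap of 0.26 on the log2 scale between the wild-type libraries was wider than the distance of 0.19 between the closest libraries of the groups. For Kcnq1 the log2 fold change was -0.38 (SE 0.12, limma adjusted p = 0.429), and it was -0.25 without wild-type replicate 2. The antisense transcript Kcnq1ot1 lies within the Kcnq1 locus and shares 121 bases of annotated exon with it, which is 2.96% of the Kcnq1 exons. Without a known strand setting the reads of the shared stretch cannot be assigned to either gene. Kcnq1ot1 stood at 23.3 and 24.02 CPM in cello and at 24.3 and 17.1 CPM in wild-type, and its log2 fold change was 0.21 (SE 0.18). The 11 other annotated genes within the locus are predicted or non-coding, share no exon bases with Kcnq1 and reached at most 0.121 CPM in any library.

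The levels of the channel subunits were also compared with each other within each library. Per kilobase of merged exons, the level of Kcne1 divided by that of Kcnq1 was 3.54 and 4.05 in cello, and both wild-type libraries lay between these values, so the groups overlapped. The mean log2 ratio differed by -0.04 between the genotypes, less than the gap of 0.19 within cello. With 2 libraries on each side the smallest p of an exact permutation test is 0.333, so no p is given for such ratios.

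Chloride recycling and potassium uptake come next. Bsnd encodes barttin, an accessory subunit that chloride recycling at the basolateral membrane needs. Bsnd (ENSMUSG00000025418, protein coding, chromosome 4, 106483456 to 106492283, minus strand) stood at 25.5 and 34.1 CPM in cello and at 38.9 and 40.0 CPM in wild-type. Both wild-type libraries lay within 0.04 of each other on the log2 scale and the cello libraries 0.41 apart, with cello replicate 1 the lowest. Its log2 fold change was -0.41 (SE 0.15, limma adjusted p = 0.444), and it was -0.21 without cello replicate 1 and -0.62 without cello replicate 2.

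Slc12a2 encodes the sodium-potassium-chloride cotransporter NKCC1, which marginal cells carry on their basolateral membrane and which fibrocytes of the spiral ligament also use. Slc12a2 (ENSMUSG00000024597, protein coding, on the plus strand of chromosome 18 from 57878678 to 57946821) stood at 1295.2 and 1140.1 CPM in cello and at 1324.0 and 1381.1 CPM in wild-type. Only a small gap separated the groups, 0.03 on the log2 scale, less than the gap of 0.18 between the cello libraries, and they overlapped after median-of-ratios rescaling, which left 4 members apart in place of 5. With the deposited scaling its log2 fold change was -0.15 (SE 0.15, 95% interval -0.54 to 0.23, limma adjusted p = 0.723). It was -0.06 without cello replicate 2, -0.25 without cello replicate 1 and between -0.18 and -0.12 without either wild-type library. The level of Slc12a2 per kilobase, divided by that of Kcne1, was 1.36 and 1.14 in cello and 1.08 and 0.992 in wild-type. The ratio was thus higher in both cello libraries, by 0.27 on the log2 scale, while the cello libraries themselves differed by 0.25.

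Esrrb encodes the oestrogen-related receptor beta, and in mice without it marginal cells fail to form properly. Esrrb (ENSMUSG00000021255, protein coding, on the plus strand of chromosome 12 from 86361117 to 86521628) stood at 169 and 188 CPM in cello and at 226 and 237 CPM in wild-type. They lay 0.26 apart between groups on the log2 scale, against gaps of 0.16 within cello and 0.07 within wild-type. Esrrb had a log2 fold change of -0.38 (SE 0.09, 95% interval -0.61 to -0.14, limma adjusted p = 0.419), and DESeq2 gave an adjusted p of 0.078. The level of Kcne1 per kilobase divided by that of Esrrb was 3.13 and 2.93 in cello and 3.01 and 3.25 in wild-type, and that of Kcnq1 divided by Esrrb was 0.883 and 0.725 in cello and 0.752 and 0.858 in wild-type. Both ratios overlapped between the genotypes, and their mean log2 values differed by -0.04 and -0.01. The genes of related receptors and their coactivators differed in direction among themselves. Esrra had a log2 fold change of -0.21 (SE 0.08), and Esrrg, which neurons of the cochlea also express, one of 0.79 (SE 0.30) with 31.7 and 39.8 CPM in cello against 15.004 and 27.6 CPM in wild-type. The coactivator gene Ppargc1a stood at 0.17 (SE 0.08) and Ppargc1b at 0.27 (SE 0.20), and 0 of these 4 genes passed in limma.

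The start regions of Esrrb and of the inward rectifier genes are shown because Esrrb was lower in both cello libraries while the rectifier genes overlapped, and because a RefSeq promoter entry was matched for 3 of the members. Each covers 250 bases before to 50 bases after a start site in RefSeq for GRCm38.p6, written on the strand of the gene, in lower case. Capitals mark matches on either strand to AAGGTCA, a short site bound by oestrogen-related receptors, to CATGTG, an E-box of the kind bound by the melanocyte factor MITF, or to the GC box GGGCGG. These motifs do not overlap one another in the windows. The entries lie at chr12:86360867-86361166 and chr12:86421394-86421693 for Esrrb, at chr1:172340960-172341259 for Kcnj10, all on the plus strand, and at chr1:87394680-87394979 on the minus strand for Kcnj13.
Esrrb, first start: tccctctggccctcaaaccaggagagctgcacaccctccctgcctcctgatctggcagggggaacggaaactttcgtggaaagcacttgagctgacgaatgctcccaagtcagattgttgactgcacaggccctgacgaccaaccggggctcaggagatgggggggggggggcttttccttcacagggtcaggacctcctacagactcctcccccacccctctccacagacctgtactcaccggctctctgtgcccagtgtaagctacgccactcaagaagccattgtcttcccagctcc
Esrrb, second start: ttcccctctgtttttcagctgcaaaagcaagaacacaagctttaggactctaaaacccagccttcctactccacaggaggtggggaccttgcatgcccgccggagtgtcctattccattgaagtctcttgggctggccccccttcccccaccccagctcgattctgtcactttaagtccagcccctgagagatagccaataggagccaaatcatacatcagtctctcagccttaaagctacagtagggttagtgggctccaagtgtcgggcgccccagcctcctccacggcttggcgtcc
Kcnj10: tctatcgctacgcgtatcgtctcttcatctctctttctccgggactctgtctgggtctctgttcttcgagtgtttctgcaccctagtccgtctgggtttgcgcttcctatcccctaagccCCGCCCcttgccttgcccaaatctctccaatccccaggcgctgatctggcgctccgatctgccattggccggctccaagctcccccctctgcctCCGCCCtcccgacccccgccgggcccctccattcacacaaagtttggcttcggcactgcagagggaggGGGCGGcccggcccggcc
Kcnj13: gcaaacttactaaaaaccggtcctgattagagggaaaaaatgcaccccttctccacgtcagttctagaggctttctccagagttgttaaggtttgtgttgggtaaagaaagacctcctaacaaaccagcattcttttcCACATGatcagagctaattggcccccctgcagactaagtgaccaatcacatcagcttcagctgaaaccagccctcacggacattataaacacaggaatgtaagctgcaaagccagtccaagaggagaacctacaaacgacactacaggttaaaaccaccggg
The letters AAGGTCA were found in 0 of the 4 windows, against 4.72% of the 32851 promoters of the same length. CATGTG occurred once, at position 139 of the Kcnj13 window counted from its first base, and in 14.2% of all promoters. GGGCGG occurred 3 times in the Kcnj10 window, at positions 121, 215 and 283, and in 35.7% of all promoters. The windows of Esrrb and Kcnj10 held 60.0%, 55.3% and 63.7% G and C, and that of Kcnj13 held 46.0%.

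The inward rectifier genes belong to intermediate cells. Kcnj10 encodes Kir4.1, whose current in intermediate cells sets up the endocochlear potential, and which glia of the spiral ganglion and supporting cells express as well. Kcnj10 (ENSMUSG00000044708, protein coding, on the plus strand of chromosome 1 from 172341210 to 172374085) stood at 225.0 and 164 CPM in cello and at 184 and 235 CPM in wild-type. Its highest value was in wild-type replicate 2 and the lowest in cello replicate 2, and the libraries of a genotype differed by 0.46 in cello and 0.36 in wild-type on the log2 scale. Kcnj10 had a log2 fold change of -0.11 (SE 0.20, 95% interval -0.61 to 0.38, limma adjusted p = 0.837). That interval includes both no difference and the value of Kcne1. Leaving out either replicate 2 turned the sign, with 0.11 without that of cello and 0.06 without that of wild-type, and the value was -0.34 without cello replicate 1 and -0.29 without wild-type replicate 1.

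Kcnj13 encodes Kir7.1, a low-conductance inward rectifier known from epithelia such as the retinal pigment epithelium and used as a marker of strial intermediate cells. Kcnj13 (ENSMUSG00000079436, protein coding, chromosome 1, 87386363 to 87394729, minus strand) stood at 6.27 and 8.60 CPM in cello and at 8.11 and 7.26 CPM in wild-type, on 266 and 408 reads in cello and 403 and 306 reads in wild-type. From counting alone, the 95% exact Poisson interval was 5.54 to 7.07 CPM in cello replicate 1 and 7.78 to 9.47 CPM in cello replicate 2, so the cello libraries differed by more than counting error. Its log2 fold change was -0.06 (SE 0.19, 95% interval -0.54 to 0.43, limma adjusted p = 0.918), and its sign turned without replicate 1 of either genotype, with 0.15 without that of cello and 0.02 without that of wild-type, while it was -0.27 without cello replicate 2 and -0.13 without wild-type replicate 2. Kcnj13 lies inside Gigyf2, which runs on the opposite strand, and 623 bases or 49.1% of its annotated exon bases are shared with exons of Gigyf2. Gigyf2 stood at 84.8 and 84.6 CPM in cello and at 90.0 and 89.2 CPM in wild-type. How the authors' counter treated the shared bases is not given in the sources used here, and the Kcnj13 values hold for whatever part of the gene was counted. The level of Kcnj10 per kilobase divided by that of Kcnj13 was 8.43 and 4.47 in cello and 5.32 and 7.61 in wild-type, the widest spread within a genotype of the ratios computed.

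**Figure D2:**
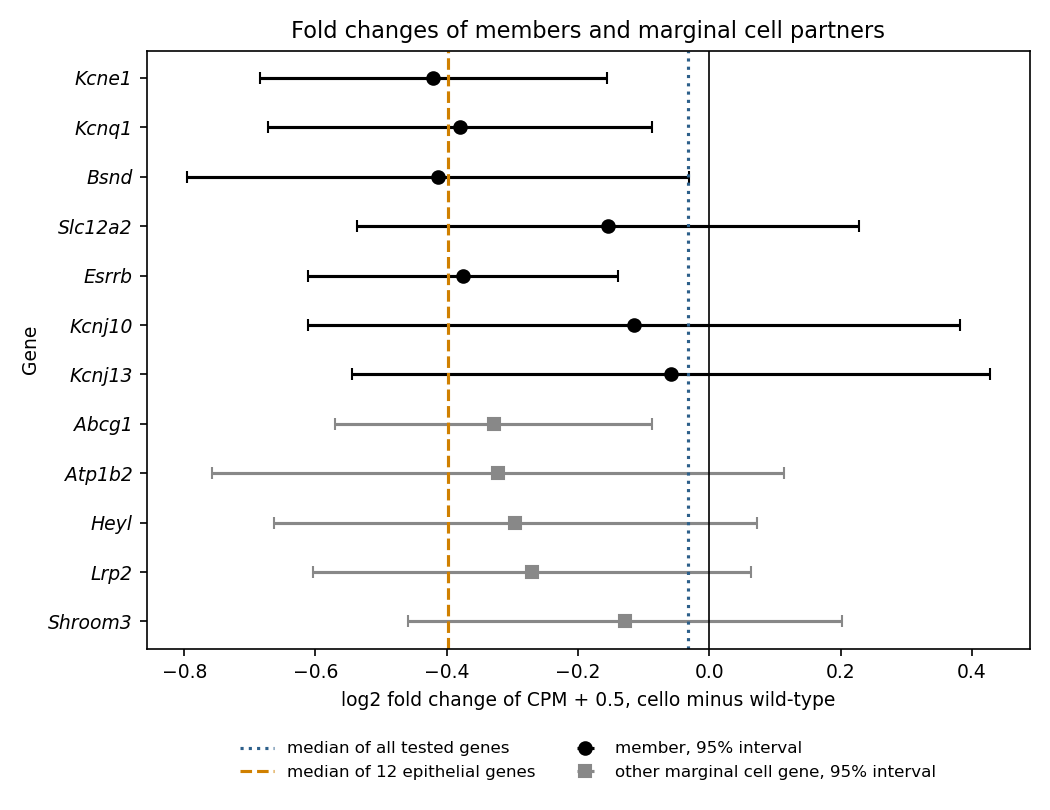
Log2 fold changes of CPM + 0.5, cello minus wild-type, with 95% intervals from limma, for the 7 members (black circles) and 5 other marginal cell genes (grey squares); lines mark 0, the median of all tested genes (-0.03) and the median of 12 epithelial genes (-0.40). Kcne1, Kcnq1, Bsnd and Esrrb lie close to the epithelial median, and the intervals of Slc12a2, Kcnj10 and Kcnj13 include 0. The epithelial list follows one first drawn up after the data were seen.

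The levels of the members per length spanned a wide range. Slc12a2 had 112 ± 10.04 CPM per kilobase of merged exons in cello and 124 ± 3.69 in wild-type, and Kcne1 had 89.3 ± 2.81 in cello and 120 ± 10.8 in wild-type (SD, n = 2). These neighbours in the order did not differ beyond their spread in wild-type, whereas in cello both libraries had more Slc12a2 than Kcne1. Kcnj10 followed with 35.9 ± 8.01 CPM per kilobase in cello and 38.7 ± 6.76 in wild-type, and Esrrb with 29.5 ± 2.26 in cello and 38.3 ± 1.39 in wild-type. Kcnq1 had 23.6 ± 1.48 CPM per kilobase in cello and 30.9 ± 3.98 in wild-type, and in wild-type both of its libraries lay below those of Kcnj10 and Esrrb, which overlapped each other. Bsnd had 10.8 ± 2.20 in cello and 14.3 ± 0.265 in wild-type, and Kcnj13 had 5.85 ± 1.30 in cello and 6.05 ± 0.471 in wild-type. The level of Kcnj13 would be 11.5 CPM per kilobase in cello and 11.9 in wild-type if only its exon bases outside Gigyf2 are taken as its length, which brings it beside Bsnd. By level per kilobase over the 4 libraries, Slc12a2 ranked 169th and Kcne1 192nd of the genes tested, Kcnj10 739th, Esrrb 838th, Kcnq1 1143rd, Bsnd 3027th and Kcnj13 6154th.

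**Figure D3:**
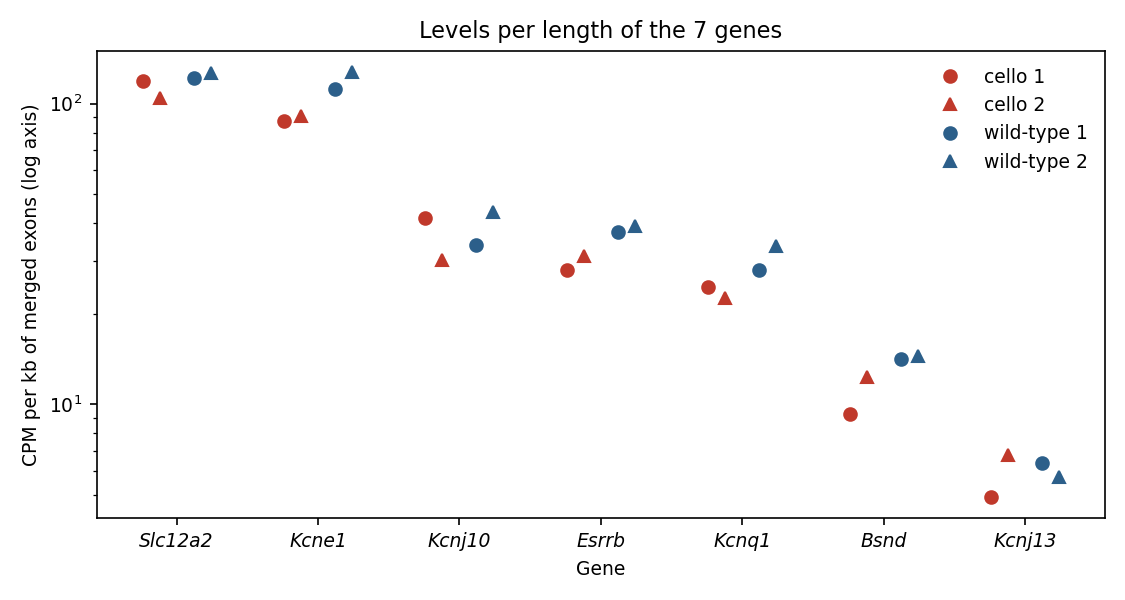
Level of each member per kilobase of merged exons, in CPM per kilobase on a log axis, with the cello libraries (red) left of the wild-type libraries (blue) and genes in order of their mean over the 4 libraries. Slc12a2 and Kcne1 were near 100 CPM per kilobase, and Kcnj13 was lowest at 4.93 to 6.77.

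Other genes of the pathway were read from lists of the strial cell types. The lists were written from general knowledge, with earlier results of these data known. Of 8 further marginal cell genes, 7 had a log2 fold change below 0, beside 56.6% of all genes tested. In both cello libraries 6 were lower, beside 28.7% of all genes tested. The median log2 fold change of the 8 was -0.31, beside -0.03 for all genes tested. Atp1b2, a subunit gene of the sodium-potassium pump, was among the 6, at 732 and 604 CPM in cello against 744 and 929 CPM in wild-type (log2 fold change -0.32, SE 0.17). The sterol transporter gene Abcg1 had a log2 fold change of -0.33 (SE 0.09) and Lrp2, which encodes the endocytic receptor megalin, one of -0.27 (SE 0.13). By limma 0 of the 8 passed. The median of the list was -0.16 without cello replicate 2 and between -0.41 and -0.26 without any other library.

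Intermediate cells were read from 13 melanocyte and intermediate cell genes, of which 12 were tested and Tyrp1 stayed under the filter. Of the 12, 10 had a log2 fold change below 0, beside 56.6% of all genes tested. In both cello libraries 6 were lower, beside 28.7% of all genes tested, and 1 was higher, beside 16.9%. The higher one was the melanocyte factor gene Mitf (0.26, SE 0.10). The median log2 fold change of the 12 was -0.21, beside -0.03 for all genes tested. The pigment enzyme genes Tyr and Dct stood at -0.56 (SE 0.12) and -0.40 (SE 0.12), and the receptor gene Met at -0.34 (SE 0.10). Dct had 711 and 733 CPM in cello against 922 and 988 CPM in wild-type, and so was lower in both cello libraries. The premelanosome gene Pmel stood at 14.2 and 87.9 CPM in cello and at 36.1 and 38.2 CPM in wild-type, and so differed most within cello. By limma 0 of the 12 passed.

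Of all genes tested, 28.7% were lower in both cello libraries. Of 7 basal cell genes, 5 were lower in both cello libraries and the median log2 fold change was -0.20. Cldn11, which encodes the tight junction protein that seals the basal cell layer, stood at 374 and 426 CPM in cello and at 532 and 539 CPM in wild-type (-0.42, SE 0.11), the transcription factor gene Nr2f2 at -0.40 (SE 0.09) and the connexin gene Gjb2 at -0.32 (SE 0.15). Of 6 genes of spindle and root cells, at the margin of the stria, 3 were lower in both cello libraries and the median was -0.36. P2rx2, which encodes an ATP-gated cation channel, stood at -0.73 (SE 0.17), and the inward rectifier gene Kcnj16 at -0.71 (SE 0.34) with 134 and 63.0 CPM in cello against 145 and 155 CPM in wild-type. The groups overlapped for Dpp10, at 10.1 and 25.3 CPM in cello against 25.4 and 21.9 CPM in wild-type, so its log2 fold change of -0.54 (SE 0.41) rests on cello replicate 1. They also overlapped for Slc26a4 (0.12) and Anxa1 (0.09), the members of that list with higher mean values in cello. Without cello replicate 2 the medians of the basal and the spindle and root lists were -0.11 and -0.19, and that of the spindle and root list was -0.23 without cello replicate 1. By limma 0 genes of either list passed.

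The route by which potassium returns to the stria was read from 11 genes of hair cells, supporting cells and fibrocytes, and its members did not share a direction. Of them 6 were lower and 2 were higher in both cello libraries, beside 28.7% and 16.9% of all genes tested. In limma 0 passed, and the median log2 fold change of the list was -0.20. Slc12a7, which encodes the potassium-chloride cotransporter KCC4 of supporting cells, stood at 144 and 129 CPM in cello and at 164 and 182 CPM in wild-type (-0.34, SE 0.10). The median was -0.11 without cello replicate 2.

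The families of the channel and transporter members gave no shared direction. Of the KCNE genes, Kcne2 and Kcne4 were tested, at 0.12 (SE 0.17) and -0.12 (SE 0.34). Of the KCNQ genes, Kcnq3, which is neuronal, stood at 0.32 (SE 0.15), with 20.9 and 26.4 CPM in cello against 17.4 and 20.0 CPM in wild-type. Of 6 tested SLC12 genes 2 were lower in both cello libraries, namely Slc12a7 and Slc12a8 (-0.49, SE 0.20). Of 7 tested inward rectifier genes, Kcnj16 and Kcnj2 (-0.22, SE 0.15) were lower in both cello libraries and Kcnj15 (0.42, SE 0.28) was higher in both. The counts of lower SLC12 and inward rectifier genes lie near the 28.7% of all genes tested that were lower in both. By limma 0 genes of these families passed.

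General epithelial genes had values like those of the marginal cell genes, but their list follows one first drawn up after the data were seen. Neither their values nor the ratios below are therefore an independent yardstick. All 12 genes of the list had lower mean values in cello. Of them 11 were lower in both cello libraries, beside 28.7% of all genes tested. Their median log2 fold change was -0.40, and they summed to 897 and 957 CPM in cello against 1144.3 and 1231.4 CPM in wild-type. Marginal cells are themselves epithelial, and most of these genes are also expressed in the organ of Corti and the rest of the cochlear duct. Divided by the summed CPM of the epithelial list in the same library, Kcne1 was 0.313 and 0.307 in cello and 0.315 and 0.333 in wild-type, and its mean log2 ratio differed by -0.06. For Esrrb the ratio was 0.188 and 0.197 in cello and 0.197 and 0.193 in wild-type, and for Kcnq1 it was 0.112 and 0.0965 in cello and 0.1003 and 0.112 in wild-type. The groups overlapped for Esrrb, Kcnq1 and Bsnd, and for Kcne1 the higher cello value lay just under the lower wild-type value. For Slc12a2 the ratio was 1.44 and 1.19 in cello and 1.16 and 1.12 in wild-type, higher in both cello libraries by 0.20 on the log2 scale. The ratios are given as a description, and the part of the epithelial share in the values of the marginal cell genes was not tested.

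**Figure D4:**
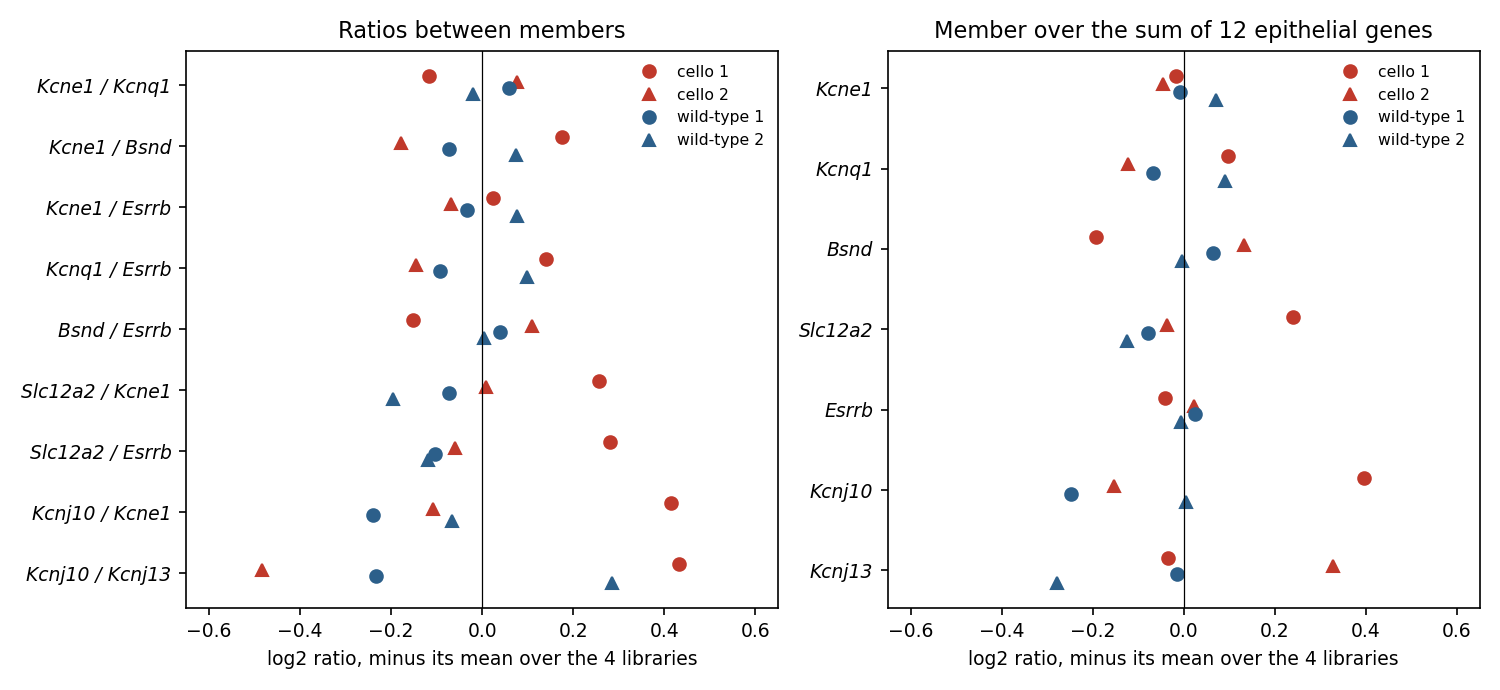
Ratios within each library, on the log2 scale after subtracting the mean over the 4 libraries, between pairs of members per kilobase (left) and of each member over the summed CPM of 12 epithelial genes (right); red marks cello and blue wild-type. Ratios among Kcne1, Kcnq1, Bsnd and Esrrb overlap between genotypes, and Slc12a2 lies higher in both cello libraries over Kcne1 and over the epithelial genes. The list of epithelial genes follows one first drawn up after the data were seen.

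Markers of other cell types had their own patterns over the same libraries. As log2 deviations from the average over the 4 libraries, the median of 12 hair cell genes was -0.41 and -0.42 in cello against 0.35 and 0.42 in wild-type, and that of 8 Schwann cell genes was 0.59 and 0.69 in cello against -1.13 and -0.05 in wild-type. For 8 bone genes it was 1.05 and -0.72 in cello against -0.13 and -0.14 in wild-type, and for 5 marrow genes 1.08 and -1.49 in cello against -0.37 and 0.59 in wild-type. Kcne1 by comparison was at -0.24 and -0.18 in cello and at 0.12 and 0.30 in wild-type, and Esrrb at -0.27 and -0.11 in cello and at 0.15 and 0.22 in wild-type. Kcnj10, at 0.17 and -0.29 in cello and -0.12 and 0.24 in wild-type, was higher in cello replicate 1 and wild-type replicate 2 than in the other libraries, as the marrow genes were. Whether other tissue in the dissected samples contributed to these values was not tested.

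**Figure D5:**
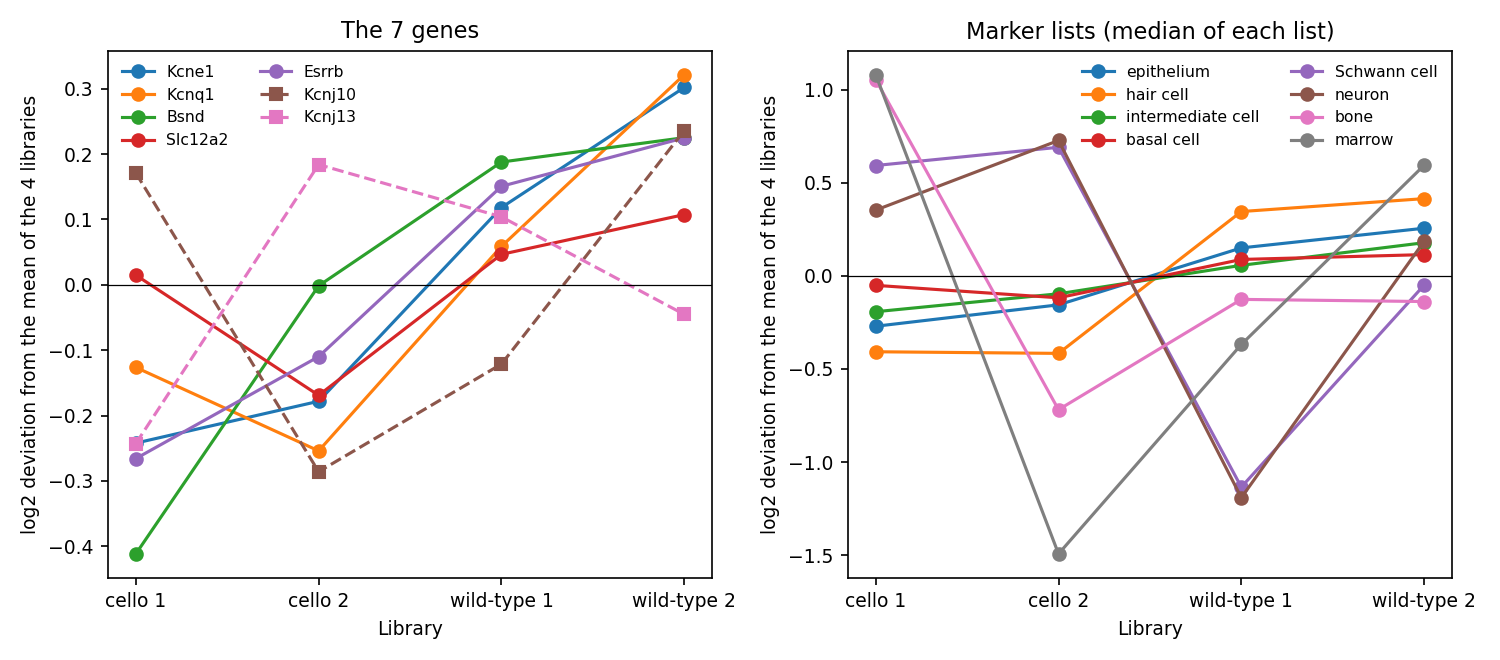
Log2 deviation of each library from the mean of the 4 libraries, for the 7 members (left) and for the median of 8 marker lists (right); the lines join the values of 1 gene or list and stand for no order of the libraries. Kcne1, Kcnq1, Bsnd and Esrrb are below 0 in both cello libraries, as is the epithelial list, though Bsnd is at -0.001 in cello replicate 2. Slc12a2, Kcnj10 and Kcnj13 and the neuron, bone and marrow lists change sign within a genotype.

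The genes closest to Kcne1 over the 4 libraries were Fbxo46, Grb7, Grm4, Slc2a12 and Rspo3, with root mean square distances of 0.01 to 0.02 on the log2 scale among 11720 genes with a mean of at least 5 CPM. Grm4, for example, stood at 16.4 and 17.4 CPM in cello and at 21.8 and 24.1 CPM in wild-type. Among the members, Esrrb lay closest to Kcne1, at 0.06, where it would rank 75th among those genes, and Kcnq1 followed at 0.08, where it would rank 196th. Bsnd lay at 0.13, Slc12a2 at 0.17, and Kcnj10 and Kcnj13 at 0.25 each. The genes closest to Kcnj10 were Ap1g2, Vtn, Atp2a3, Wscd1 and Mcm2, at 0.04 to 0.06, and its nearest member was Slc12a2 at 0.14. Many genes lie this close with only 4 libraries, and the distances are given as a description.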

How the data were processed

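RNA of whole cochleae at postnatal day 8 was sequenced after TruSeq preparation, per the labels' protocols. Each library has 1 file of deposited CPM. The sums of the values show that the authors scaled them to every counted alignment, with 5 entries for alignments outside named genes (27.2% to 30.0%), which were kept out of the tests. The submitters' processing notes name TopHat and GRCm38. Counter, strand setting and annotation release were not given in the sources used here. In each file 100% of the CPM came out as whole reads (tolerance 0.001) when divided by the smallest one, and the reads were used for the count tests. A count of 3 reads equals 0.0603 to 0.0712 CPM, and intervals cover counting error only. Of 37239 identifiers, 36504 matched GENCODE M21, which supplied symbols, positions and merged exon lengths.

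The 14721 genes that reached 1 CPM in 2 or more libraries were fitted on log2(CPM + 0.5) in limma 3.58.1 under R 4.3.3. The variance trend was used, tests were two-sided, and p-values were adjusted by Benjamini-Hochberg over all these genes, with a threshold of 0.05. This scale understates the change of low genes. edgeR 4.0.16 (quasi-likelihood) and DESeq2 1.42.0 (1142 adjusted p undefined) were run on the recovered reads. edgeR called 0 genes, and DESeq2 called 80 lower and 115 higher. The tests were tested on simulated data. Tables used pandas 2.3.3 and plots matplotlib 3.10.9, under Python 3.11.15. The members, and the lists drawn from general knowledge, were chosen with earlier results of these data known, and the epithelial list in particular follows one first drawn up after the data were seen. Every member is named, as are the 3 genes of each other list with the smallest p, the genes that overlap a member by shared exon bases, and the 5 genes nearest to Kcne1 and to Kcnj10. Atp1b2, Mitf, Pmel, Tyrp1, Ppargc1b, Slc26a4, Anxa1, Syt1, Prox1, S100a8 and S100a9 were named after their values were seen. Some genes of the lists were kept in the counts and medians and are not reported here by themselves. Alternatives were other pseudocounts, filters and scalings, limma without a trend, a replicate block, edgeR, DESeq2, and omission of each library. Leaving out a library for the count of members whose groups stood apart was chosen after seeing the data.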

Additional observations from a re-analysis of the deposited data

How the results depend on the processing

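Under the 11 settings that kept all libraries, every member kept its direction, and the calls of the members were the same except for Kcne1 in DESeq2 (log2 fold change -0.38, adjusted p = 0.038, against 0.038 to 0.523 over those settings), which made 1 member lower in place of 0. DESeq2 called 80 genes lower and 115 higher where limma and edgeR called 0, with 651 lower and 812 higher at an unadjusted p below 0.05 in edgeR, and the cause was not tested. Without 1 library, 0 genes were lower and 0 to 90 higher, with 90 without wild-type replicate 2, and 0 members passed in either direction. The log2 fold changes then ranged from -0.51 to -0.33 for Kcne1, from -0.51 to -0.25 for Kcnq1, from -0.62 to -0.21 for Bsnd, from -0.25 to -0.06 for Slc12a2, from -0.45 to -0.30 for Esrrb, from -0.34 to 0.11 for Kcnj10 and from -0.27 to 0.15 for Kcnj13. The sign of Kcnj10 turned without cello replicate 2 (0.11) or wild-type replicate 2 (0.06), and that of Kcnj13 without cello replicate 1 (0.15) or wild-type replicate 1 (0.02). The lone library of a genotype was then assumed to vary like the others. Between 5 and 6 members stood lower without 1 library, where 39.3% to 47.9% of all tested genes did. List medians ranged from -0.41 to -0.16 (marginal), -0.29 to -0.16 (intermediate), -0.29 to -0.11 (basal), -0.22 to -0.11 (potassium return), -0.44 to -0.19 (spindle and root) and -0.46 to -0.34 (epithelium). The equal replicate numbers are not stated to pair the libraries, and their deviations correlated at 0.13. With the replicate block, 0 members passed, and Kcne1 had an adjusted p of 0.266 with a log2 fold change of -0.42. The rescalings moved the median of all genes by less than 0.03. With 2 libraries per genotype the intervals of Slc12a2, Kcnj10 and Kcnj13 include both 0 and -0.42.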

Other observations

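The remaining lists were measured as context, and 0 of their genes passed in limma. Of all genes tested, 28.7% were lower and 16.9% were higher in both cello libraries. Of the 12 hair cell genes 9 were lower in both cello libraries, with log2 fold changes of -1.18 for Slc26a5, which encodes prestin, -1.16 for Lmod3 and -0.86 for Pou4f3. Of the 12 epithelial genes, Ap1m2 stood at -0.54, Rab25 at -0.50 and Epcam at -0.47. Among 10 supporting cell genes (median -0.33), 4 were lower and 1, Prox1 (0.79), was higher in both cello libraries, and Otog stood at -0.61, Lfng at -0.46 and Bace2 at -0.26. Among 8 neuronal genes (median 1.04), 4 were higher in both cello libraries, among them Elavl4 (1.53), Snap25 (1.47) and Nefm (1.44), and the groups overlapped for the other 4, with 3 values below 0, the lowest -0.43 for Syt1. All 4 of the higher ones were lowest in wild-type replicate 1. All 8 Schwann cell genes were higher in both cello libraries (median 1.18), among them Egr2 (1.19), Drp2 (1.13) and Ncmap (1.09).

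The median was 0.16 for 8 bone genes, and the groups overlapped for all 8. Dmp1 (0.67) had 259 and 53.6 CPM in cello against 65.1 and 83.7 CPM in wild-type, and Phex (0.46) had 168 and 63.0 CPM in cello against 77.0 and 72.1 CPM in wild-type, so both values rest on cello replicate 1, and Spp1 stood at 0.25. Fibrocyte genes had a median of 0.21. Of these, Slc4a10 (0.91) had 47.6 and 15.8 CPM in cello against 13.03 and 15.8 CPM in wild-type, and Otos (0.62) had 1679.4 and 591 CPM in cello against 763 and 552 CPM in wild-type, again with cello replicate 1 far above the rest, while Tbx18 stood at 0.21. Of 5 tested marrow genes 3 had lower and 2 higher mean log2 values in cello, the groups overlapped for all 5, and the median was -0.26. Ngp (-0.43) had 11.001 and 1.45 CPM in cello against 4.405 and 7.80 CPM in wild-type, Mpo stood at -0.28 and Camp at -0.26, and S100a8 and S100a9 at 0.28 and 0.03. The groups overlapped for all endothelial genes (median 0.14), among them Egfl7 (0.29), Pecam1 (0.24) and Cdh5 (0.20), and for all macrophage genes (median -0.03), among them Aif1 (0.20), Cx3cr1 (-0.16) and Csf1r (-0.07).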
